A study of Oryctolagus cuniculus with 4 samples.

Results

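The array probes described here gave a clear signal in parthenote blastocysts and none that passed the same limit in fertilised blastocysts. They were selected on those signals. A probe was taken when marked well above background in the parthenote channel on all 4 arrays and in the fertilised channel on none. The marks come from Feature Extraction, the software that reads the scanned slide. A probe that it marked as non-uniform or as a population outlier did not qualify. Of 43603 probes, 140 met this (0.321%), whereas 740 met the reverse rule (1.70%). Then 22 probes of 10 genes were left out because their description or gene name held a cilium keyword such as dynein, radial spoke or the symbol stems CFAP, DNAH, DNAI, RSPH and SPAG. The remaining 118 probes belong to 79 genes or unnamed identifiers out of 22644 on the array. They comprise 47 gene symbols with 82 probes, 4 loci known by a likeness to a named gene with 5 probes, and 28 identifiers without a gene name. Joining identifiers whose probes share 40 or more bases leaves 74.

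All embryos were day 6 blastocysts of New Zealand White rabbits. Parthenotes came from oocytes that were activated by electrical pulses, cycloheximide and 6-DMAP with no sperm, so that both genome copies are maternal, and that were then placed in the oviducts of recipient does and flushed from the uterus. The untreated control embryos came from inseminated does and were flushed from the uterus in the same manner. Each of the 4 arrays held a parthenote pool in Cy3 and a fertilised pool in Cy5, and the dyes were swapped on 0 of them, so that group and dye cannot be told apart. The labels do not state which does gave the embryos of each pool, and p-values measure only the spread between these pools. In the deposited signals, the dimmest spot that counted as well above background was at 14.1 to 18.2 for parthenotes, depending on the array, and at 10.5 to 13.2 for fertilised embryos. The fertilised signals of the 118 probes are therefore bounds and not levels.

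A day 6 rabbit blastocyst holds an outer trophectoderm, an epiblast and primitive endoderm. Motile cilia are the beating hairs that cover many cells of the oviduct lining, in which doublet microtubules, dynein arms and radial spokes form the axoneme. The genes of that machinery carry many unrelated names, among them ENKUR and the DNAAF series of dynein assembly factors. Secretory cells of the oviduct and uterus, leukocytes, stroma and smooth muscle lie beside the ciliated cells in the same tract.

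The name of this set, transcripts without a link to cilia, did not hold for all members. A list of genes known from motile ciliated cells, without the genes the keywords had removed, had 107 genes with a named probe on the array, of which 12 (11.2%) were members. Among them are AKAP14, DAW1, DNAAF11, DTHD1, ENKUR, FAM81B, IQCA1, MLF1, NEK10, TEX26 and TSGA10. These 12 make up 25.5% of the 47 symbols and, with 23 probes, 19.5% of the 118 probes. The array has 9773 symbols in all, next to the 47 member symbols and the 107 list genes. A locus described as like LRRC48, a gene of the complex that joins axonemal doublets, was a member too and is not on the list. The set is therefore called the selected transcripts below.

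The probes are 60 bases long, and their sequences show how far several signals of a gene are separate measurements. The 3 probes of AMPD1, the AMP deaminase of skeletal muscle, do not overlap. They lie at chr13:49519213-49519929, chr13:49519930-49519989 and chr13:49520004-49520061 of a genome build that the array files do not name, the first over a stretch longer than the probe itself.

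AMPD1 probe 1: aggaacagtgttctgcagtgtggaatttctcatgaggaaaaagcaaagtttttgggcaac
AMPD1 probe 2: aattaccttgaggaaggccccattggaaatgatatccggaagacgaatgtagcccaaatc
AMPD1 probe 3: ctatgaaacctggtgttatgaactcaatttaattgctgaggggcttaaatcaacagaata

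For DNAAF11, an assembly factor of dynein arms that the array calls LRRC6, the 3 probes lie at chr3:148347241-148347300, chr3:148347281-148347340 and chr3:148347321-148347380 on the minus strand, each next pair sharing fewer than 40 bases.

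DNAAF11 probe 1: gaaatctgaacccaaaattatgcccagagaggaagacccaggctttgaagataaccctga
DNAAF11 probe 2: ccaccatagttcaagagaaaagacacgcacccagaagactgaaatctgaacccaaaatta
DNAAF11 probe 3: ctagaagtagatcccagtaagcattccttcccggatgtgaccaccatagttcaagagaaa

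The 5 probes of EMX2, a homeobox transcription factor of the urogenital tract and forebrain, are in contrast shifted copies of a single stretch on chromosome 18. The brightest pair lies at chr18:64951035-64951094 and chr18:64951034-64951093 and shares the 59 bases in capitals, so its agreement is close to a repeat of 1 measurement.

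EMX2 probe 1: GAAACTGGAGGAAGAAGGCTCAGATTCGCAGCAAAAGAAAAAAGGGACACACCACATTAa
EMX2 probe 2: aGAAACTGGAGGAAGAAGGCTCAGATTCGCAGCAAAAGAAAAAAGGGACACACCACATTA

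The last 4 sequences are the brightest member probes of genes on which the description of brightness and of differences between pools rests, namely PTPRR at chr4:49667509-49667568, EHF at chr1:173955488-173955662, CTSS at chr13:41384030-41384089 and RLN1 at chr1:48873768-48873827.

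PTPRR: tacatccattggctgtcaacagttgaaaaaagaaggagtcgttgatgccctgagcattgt
EHF: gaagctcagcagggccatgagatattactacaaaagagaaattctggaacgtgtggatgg
CTSS: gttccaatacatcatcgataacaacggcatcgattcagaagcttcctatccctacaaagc
RLN1: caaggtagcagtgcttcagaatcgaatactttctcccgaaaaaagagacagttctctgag

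The selected transcripts were dim. The mean parthenote signal of a member probe lay between 19.6 and 197, with a median of 52.3, whereas the 24504 probes that were well above background in all parthenote pools had a median of 405. Of those probes, 63.3% were brighter than the brightest member. Brightness here ranks probes and not transcripts, since probes bind with different strength. The mean deposited log2 ratio of parthenote over fertilised ranged from 1.00 to 5.31 over the members, with a median of 3.08, and was above 0 on all 4 arrays for all 118 probes. The selection fixed that direction.

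Because the fertilised side was below its limit, each fold was also given as a bound. Normalized parthenote signals were set against the dimmest fertilised signal that was well above background on the same array, or the probe's own value where that was higher, as means over the 4 arrays. The bound had a median of 1.71 and ran from at least 1.14-fold for TSHZ1 to at least 4.28-fold for the unnamed transcript ENSOCUT00000012888. It was 2 or more for 34 probes (22 without array 3) and under 1 for none. On the deposited processed signals, without the added offset that damps dim spots, the median bound was 4.05 and 104 probes reached 2, and with the 5th percentile of detected probes as the floor the median was 1.37, with 13 probes at 2 or more and 3 under 1.

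**Figure D1:**
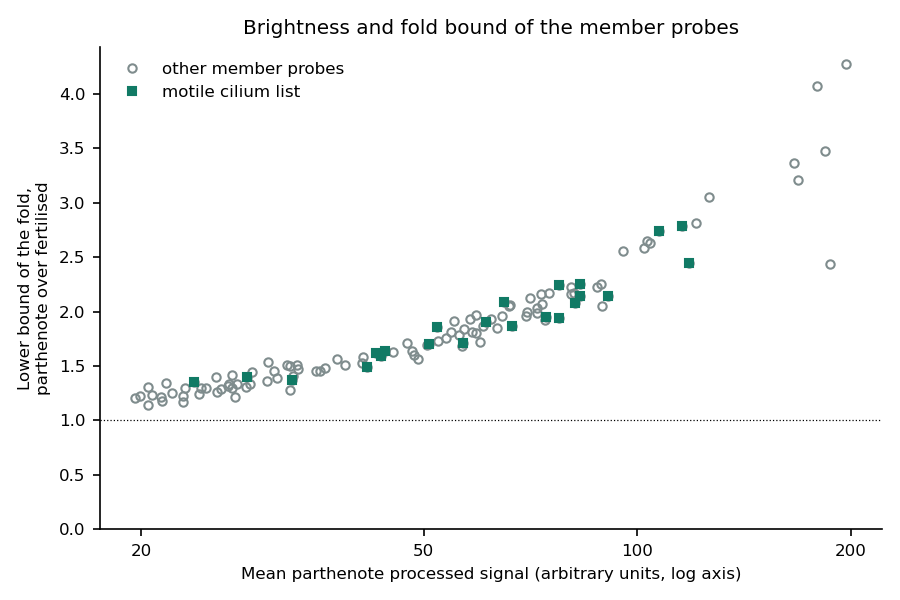
Lower bound of the fold of parthenote over fertilised embryos (vertical axis) against the mean parthenote processed signal over 4 arrays (horizontal log axis), with 1 point per member probe. The bound climbs from 1.14 to 4.28 with brightness, as its construction implies, and the probes of motile cilium genes (squares) lie among the others.

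As described above, 12 members belong to motile cilium biology under names that no keyword caught. MLF1, an adaptor protein abundant in ciliated cells, was the brightest of them on the log scale, with parthenote signals of 109.9, 64.9, 177 and 110.3 on arrays 1 to 4. Its fertilised signals were 3.81 to 6.91, and its fold was at least 2.79. The parthenote pool of array 2 was the lowest and that of array 3 the highest.

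For DNAAF11 the parthenote signals were 85.6, 38.4, 134 and 69.0, a fold of at least 2.08, and its other probes reached at least 2.25 and 2.08. IQCA1, a protein of the link between axonemal doublets, spread most within this group, with 94.6, 37.2, 226 and 115.6. In that gene array 3 was 6.07 times array 2, and the fertilised values were 3.47 to 9.14.

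AKAP14, which anchors protein kinase A in the axoneme, had 73.9, 36.0, 122 and 77.7 in parthenotes and 5.69 to 8.23 in fertilised embryos. An unnamed member probe on the X chromosome shares bases with a further AKAP14 probe and gave 52.8, 34.9, 127 and 65.7, the same order of pools. DAW1, a factor for dynein transport into cilia, had 36.0, 44.4, 124 and 61.7. It was lowest on array 1 and not on array 2.

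Enkurin (ENKUR), a microtubule inner protein of cilia and sperm tails, gave 57.3, 29.8, 71.2 and 45.3 on the brightest of its 4 overlapping probes, a fold of at least 1.70. NEK10, a kinase of motile ciliated cells, had 24.1, 24.1, 74.7 and 53.3 and a fold of at least 1.64. FAM81B, expressed in ciliated and testicular cells, had 2 separate member probes with 48.6, 39.6, 84.02 and 55.3 and 54.5, 24.4, 78.1 and 51.7. Their bounds were 1.71 and 1.86.

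DTHD1, a death domain protein, departed from these genes in its pools, with 63.9, 91.6, 90.7 and 85.9, arrays 2, 3 and 4 being close to each other. TSGA10, a protein of the sperm tail, and TEX26, a testis-expressed gene, were the dimmest of the 12, with 34.1, 21.1, 51.1 and 24.2 and 19.4, 26.8, 40.1 and 26.3. The LRRC48-like locus gave 65.6, 39.3, 118 and 59.4 and a fold of at least 2.13. A locus described as CCDC30, a coiled-coil protein, ranged from 18.6 on array 2 to 142 on array 3, and SPATS1, a serine-rich protein of spermatogenesis, gave 27.0, 19.4, 54.9 and 31.2.

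**Figure D2:**
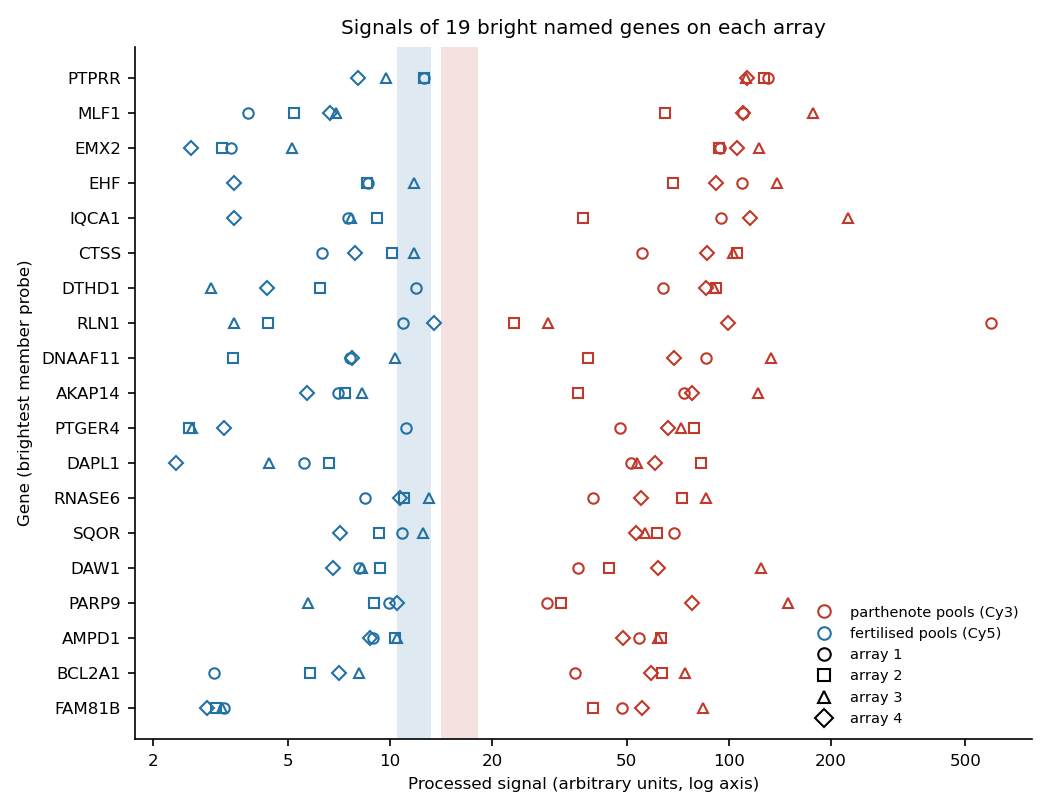
Processed signals (horizontal log axis, arbitrary units) of 19 named member genes among those with the brightest member probes, for the parthenote pool (red) and fertilised pool (blue) of each array (symbol). The shaded bands span, over the 4 arrays, the dimmest spots that were well above background in the parthenote (14.1 to 18.2) and fertilised (10.5 to 13.2) channels, and RLN1 spreads most, from 23.2 to 596.

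Among transcription regulators, EMX2 was the brightest, with 94.2, 93.6, 123 and 106 in parthenotes and 2.58 to 5.13 in fertilised embryos, a fold of at least 2.63. Its parthenote pools lay close together on this probe, while a copy shifted by a few bases gave 36.2, 82.0, 114 and 91.0, with array 1 lower. The fertilised values of both were near the bottom of the scale. EHF, an ETS factor of glandular epithelia, gave 109.7, 68.6, 139 and 91.7 and a fold of at least 2.59, with the spread towards array 3 seen in the cilium genes. The developmental regulators HOXB6, TSHZ1 and TAL2 were at the edge of detection, with means of 20.4, 20.4 and 19.9.

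Several members are known from immune cells or from defence. CTSS, the lysosomal protease cathepsin S of antigen-presenting cells, gave 55.5, 106, 103 and 86.3 in parthenotes and 6.28 to 11.8 in fertilised embryos, a fold of at least 2.22. BCL2A1, a survival factor of the BCL2 family found in leukocytes, had 35.1, 63.6, 74.5 and 59.0, and RNASE6, an antimicrobial ribonuclease, had 39.9, 72.9, 85.8 and 55.0. In all 3 the pool of array 1 was the lowest, unlike most cilium genes.

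PTGER4, a receptor of prostaglandin E2, had 47.9, 78.9, 72.1 and 66.0 and a fold of at least 2.06, again lowest on array 1. PARP9, an interferon-induced member of the poly(ADP-ribose) polymerase family, ran from 29.0 to 149.8, with array 3 highest. Its log2 ratio of 2.75 ± 1.43 (SD, n = 4 arrays) was among the most variable. A locus like IFIT1, a sensor of foreign RNA induced by interferon, gave 49.3, 29.7, 81.3 and 49.3, and an unnamed probe 1255 bases away on chromosome 18 gave 49.2, 36.0, 104 and 53.5, in the same order of pools.

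IL15, a cytokine for natural killer cells, had 3 overlapping member probes with means between 26.8 and 32.4. A brighter IL15 probe was detected in both groups on all 4 arrays, with means of 47.7 in parthenotes and 17.55 in fertilised embryos. Cathepsin E (CTSE), an aspartic protease of mucosal surfaces, had 29.6, 27.9, 40.9 and 29.9. The calprotectin subunit S100A8 and CYTIP, a cytohesin partner of lymphocytes, had means of 25.5 and 21.3. Probes for an immunoglobulin kappa chain and an immunoglobulin heavy chain were members with means of 24.2 and 20.7, close to the limit of detection.

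Relaxin (RLN1), a peptide hormone of pregnancy, was set by a single pool. Its parthenote signals were 596, 23.2, 29.3 and 99.8 on arrays 1 to 4, against 3.46 to 13.5 in fertilised embryos, so that array 1 was 25.7 times array 2. The other bright RLN1 probes followed this order, with 1141, 46.7, 76.4 and 213 and 1135, 39.6, 68.8 and 184. Their fertilised signals ran from 7.113 to 30.77 and from 9.004 to 35.57, and each was well above background there on 2 arrays. On these brighter probes RLN1 was therefore not detected in parthenotes alone. The log2 ratio of the member probe was 5.77 on array 1 and 2.42, 3.09 and 2.89 on arrays 2 to 4. The selection fixed its sign on each array.

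Among signalling proteins, PTPRR, a receptor-type tyrosine phosphatase, was the brightest named member on the log scale and even between pools. Its parthenote signals were 131, 127, 112 and 113, its fertilised signals 8.06 to 12.6 and its fold at least 2.81. GUCY1A1, a subunit of the nitric oxide receptor guanylate cyclase, had 29.0, 26.0, 38.7 and 30.3. NOSTRIN, which the array file describes as like PAK-interacting exchange factor beta, and ITPR3, a calcium channel of the endoplasmic reticulum, had means of 32.7 and 26.5. The calcium-binding proteins OCM and NECAB3 had 24.7 and 24.1.

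Members known from metabolism and transport were led by a locus like CYP2E1, a cytochrome P450 of xenobiotic metabolism, with 115, 78.1, 58.2 and 74.3 and a fold of at least 2.17. SLC26A7, an anion exchanger, gave 66.2, 55.8, 49.1 and 53.2, and SQOR, the mitochondrial enzyme of sulfide oxidation, gave 68.9, 61.5, 56.8 and 53.3. For all 3, array 1 was the highest pool. SLC46A2, a membrane transporter, had 35.0, 51.6, 36.4 and 40.6, and HACD4, an enzyme of fatty acid elongation, had 33.3, 24.1, 31.6 and 24.6.

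DAPL1, a small protein of epithelial differentiation, had 5 overlapping member probes, of which the brightest gave 51.4, 82.8, 53.5 and 60.7, with array 2 highest. RARRES1, a retinoic acid responsive gene, was low on arrays 1 and 2 and high on arrays 3 and 4, with 20.7, 25.7, 112 and 56.3. NTN4, a netrin of basement membranes that the array file calls like laminin B1, had 18.6, 28.1, 47.0 and 27.0, and PRR15, a proline-rich protein, had 25.5, 38.2, 54.5 and 36.9.

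Genes known from muscle were represented by AMPD1 and TTN. AMPD1 had 3 separate member probes, whose sequences are given above, with 54.4, 63.3, 62.02 and 48.6 on the brightest and bounds of 1.84, 1.69 and 1.59. Its log2 ratio of 2.57 ± 0.07 (SD, n = 4 arrays) was among the least variable of the members. Titin (TTN), the spring protein of the sarcomere, had 2 separate member probes out of 20 on the array, with means of 30.8 and 28.1. LSMEM1 and EMB, both membrane proteins, had means of 25.9 and 25.6.

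The 28 identifiers without a gene name included the brightest probes of all. ENSOCUT00000012888 had 3 member probes, of which the brightest gave 179, 91.3, 313 and 206 against 5.48 to 8.32. All 3 showed the same order of pools, and 2 of them do not overlap. ENSOCUT00000017473 gave 162, 108, 279 and 168 against 2.87 to 10.2, a fold of at least 4.08. ENSOCUT00000006821 had 2 separate member probes on chromosome 17, both highest on array 1, with means of 35.2 and 35.8.

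The parthenote pools differed from each other, and the members did not all follow the same pool. Over the brightest member probe of each gene, the ratio of array 3 to array 2 had a median of 2.76 in the 12 motile cilium genes (range 0.99 to 6.07). It was 1.18 in the 39 other named genes (0.49 to 7.63) and 1.31 in the 28 unnamed identifiers (0.46 to 8.39). For the 10 genes that the keywords had removed the median was 3.18 (1.21 to 5.25), and over all probes detected in parthenotes it was 0.96. Array 3 was the highest and array 2 the lowest pool in 9 of the 12 cilium genes, 9 of the 10 keyword genes, 10 of the 39 other named genes and 8 of the 28 unnamed identifiers. Array 1 was the highest pool in 0 of the 12 and 11 of the 39. These shares describe 4 pools and were not tested.

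**Figure D3:**
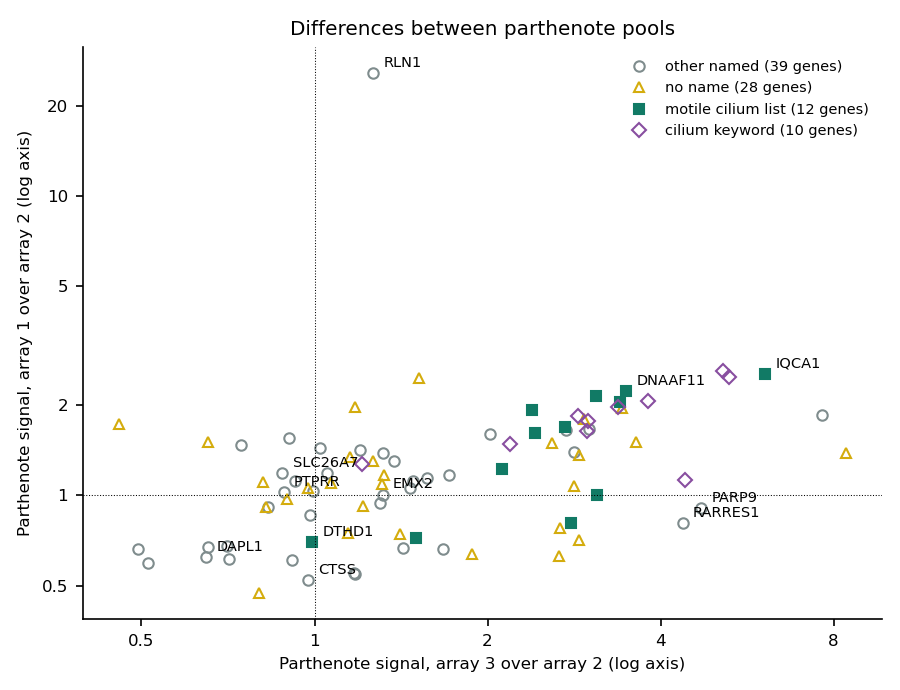
Ratio of the parthenote signal on array 3 to array 2 (horizontal log axis) and on array 1 to array 2 (vertical log axis) for the brightest probe of each member gene, and of the 10 genes removed by keyword (diamonds). Most motile cilium genes (squares) lie to the right with the keyword genes, while RLN1 stands apart at 25.7 on the vertical axis.

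The pool of array 2 was the dimmest parthenote pool for 54 of the 118 member probes and for 22 of the 22 keyword probes. Array 3 was the brightest for 71 and 21. Across the 24504 probes detected in all parthenote pools, array 2 was the dimmest for 2631 and array 3 the brightest for 5120. Member probes varied more between arrays than the array as a whole, with a median SD of the log2 ratio of 0.56 against 0.16, the fertilised side of the members being below its limit. The whole array includes undetected probes whose ratio, from substitute values, has an SD of 0.

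Other probes of the same genes gave a view of agreement on the same contrast, described without a test. There were 110 of these for 38 of the 79 genes or identifiers, and the other 41 had member probes alone. How many of the 110 share bases with a member was not counted, so they need not be separate measurements. Of the 110, 107 had a mean log2 ratio above 0 (97.3%), 2 below 0 and 1 at exactly 0, where both channels held a substitute value. The median was 2.09, against 0.00 over all 43603 probes, of which 39.9% were above 0. The others are not all below 0, since undetected probes with a substitute value in both channels are at exactly 0. In 39 the parthenote channel was detected on all arrays and the fertilised channel on 1 to 3, and in 29 the parthenote channel on 1 to 3 arrays and the fertilised channel on none. A further 15 were detected in both channels on all arrays, and 13 in neither. The 15 belong to TTN, ITPR3, MLF1, FAM81B, DAPL1, IL15, EMB and HACD4.

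For MLF1 and titin, all other probes had the direction of the members but smaller ratios than the brightest member probe. The 3 other MLF1 probes had log2 ratios between 3.38 and 3.47, next to 4.31 ± 0.56 (SD, n = 4 arrays) for the member, although they were detected in fertilised embryos on 1 to 4 arrays. The 18 other titin probes ran from 0.48 to 2.15, and 7 of them were detected in both groups on all arrays. With 166, 194, 126 and 148 in parthenotes and 49.3, 43.0, 42.0 and 52.4 in fertilised embryos, the brightest titin probe measured a difference between detected levels, and not a presence against an absence.

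Some probes went against the members of their gene. The third FAM81B probe was far brighter, 4594, 4210, 3846 and 3961 in parthenotes and 4968, 4366, 4559 and 4123 in fertilised embryos, with a log2 ratio of -0.12 ± 0.09 (SD, n = 4 arrays) against 4.15 ± 0.45 for the brightest member. For PTGER4, 2 further probes gave 3.20 and 3.31, but 3 probes of another set gave 0.23 to 0.38. ITPR3 and TAL2 also had probes near 0, with 0.11 and 0.08. The presence of these genes in parthenotes alone thus rests on some of their probes.

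**Figure D4:**
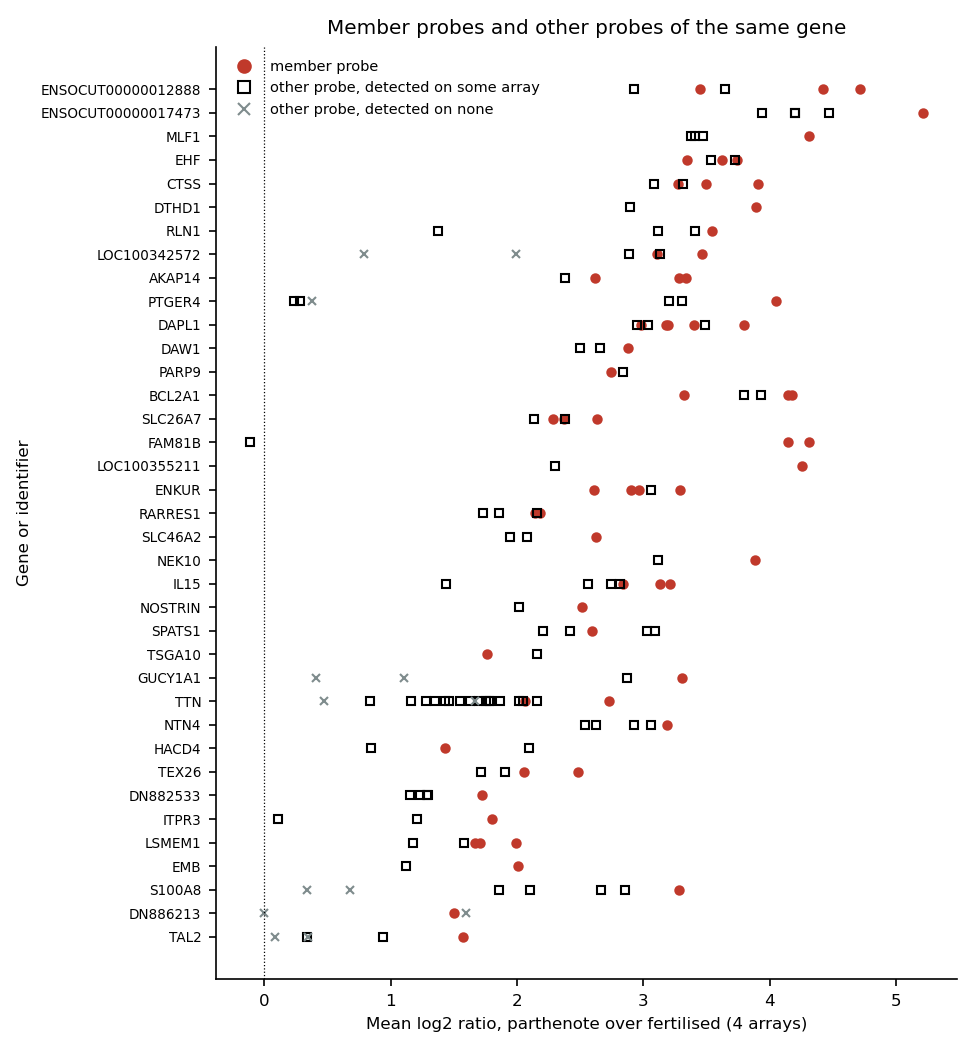
Mean log2 ratio of parthenote over fertilised embryos over 4 arrays for member probes (filled circles) and other probes of the same gene or identifier (open squares, or crosses where neither channel was detected on any array), ordered by brightness. Most other probes lie to the right of 0, while 1 probe of FAM81B lies at -0.12.

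A weaker call of the same software, a signal significantly above the local background, left few members. Under it 75 of the 118 probes were also above background in fertilised embryos on all 4 arrays, 34 on 1 to 3 arrays and 9 on none. Of the 22 keyword probes the counts were 6, 15 and 1. Detection in parthenotes alone therefore depends on the limit. Just inside it lay an unnamed probe with a mean of 19.6, TAL2, TSHZ1, HOXB6 and the immunoglobulin heavy chain, with means of 19.6 to 20.7. Just outside it, 176 probes without a keyword missed the rule by a single call, 111 of them in parthenotes and 65 in fertilised embryos. The brightest of these were 3 further probes of ENSOCUT00000017473 with means of 174 to 199, ENSOCUT00000008511 with 190.2 and MLF1 with 159.9.

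Among genes of motile cilia beyond the members, more were called higher than lower in parthenotes. In limma, a linear model that shares information on spread across probes, 4155 of 43595 probes were higher in parthenotes (9.53%) and 4841 were lower (11.1%) at an adjusted p of 0.05. Of the 95 listed cilium genes that were not members, 19 (20.0%) rose and 3 fell, with a median log2 ratio of 0.45 against 0.00 over all probes. List genes were read on their brightest probe. In another fit dim probes, those not well above background on all 4 arrays in at least 1 channel, were removed. With dim probes removed, 25 of the 50 list genes left were higher, next to 18.5% of all probes. Some, such as ODAD2, passed that filter through the parthenote channel alone, so nothing is read from this share. With arrays 1 to 4 left out in turn, 6, 8, 2 and 2 of the 95 were higher (6.32%, 8.42%, 2.11% and 2.11%), next to 6.11%, 2.09%, 2.52% and 1.22% of all probes, so that the share was near that of all probes without array 1 and below it without array 3. Those that rose included ODAD2, a docking protein of dynein arms, with 4.47 ± 0.26 (SD, n = 4 arrays; adjusted p = 0.00429 in limma), and CAPS with 2.42 ± 0.42 (adjusted p = 0.0125 in limma). CCNO, a regulator of centriole multiplication in ciliated cells, fell by 1.02 (adjusted p = 0.0304 in limma), GAS8 fell by 0.47 (adjusted p = 0.0202 in limma) and DZIP3 by 0.26 (adjusted p = 0.0249 in limma). The 5 genes named kept their direction without any single array. ODAD2 kept its call as well, CAPS lost it without array 3 or 4, and CCNO, GAS8 and DZIP3 lost it without any of the 4. FOXJ1, the master regulator of motile ciliogenesis, was not well above background in either group on any array. In the same fit 112 of the 118 member probes were higher, from which nothing is read because the members were selected on this contrast. Those of RLN1, PARP9 and TSGA10 and 1 probe each of RARRES1, TEX26 and LSMEM1 did not pass.

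Lists of markers of other cells that could accompany a flushed embryo differed in how many of their genes rose. Of 15 listed genes of oviduct and uterine secretory cells, 7 rose, the member EHF among them, next to 9.53% of all probes. The 14 others had a median log2 ratio of 1.00, which was 0.36 with normexp and loess and 0.46 with normexp and median centring, and 6 of them rose. OVGP1, the oviductal glycoprotein, had 3.87 ± 0.29 (SD, n = 4 arrays; adjusted p = 0.00513 in limma). Other genes of the list did not move with it. LCN2 and ELF3 had -0.57 and -0.26, and SPDEF, WFDC2 and FOLR1 lay between -0.001 and 0.23. With arrays 1 to 4 left out in turn, 3, 2, 3 and 1 of the 7 were called. The shares of all probes were then 6.11%, 2.09%, 2.52% and 1.22%. The summed signal of the list was 31400 to 50300 in parthenote pools and 19070 to 22610 in fertilised pools. Within it, mean parthenote and fertilised signals were 8820 and 579 for OVGP1 and 4086 and 620 for SCGB1A1. For FOLR1 they were 16150 and 13510. Of 15 leukocyte genes, 5 rose (median 0.14), next to 9.53% of all probes, with sums of 6170 to 8244 and 6494 to 7086. With arrays 1 to 4 left out in turn, 4, 0, 2 and 1 of the 15 were called, next to the same shares of all probes. PTPRC and CD3E were not well above background in either group, and CD48 rose by 1.85 (adjusted p = 0.0117 in limma), a call lost without array 2 or 4.

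Of 5 erythroid genes 2 rose, next to 9.53% of all probes, and their sums were 13240 to 31960 and 4322 to 11380. Of 12 stroma and muscle genes 1 rose, next to 9.53% of all probes, with sums of 4109 to 5471 and 2810 to 3545, and COL1A1 and ACTA2 were not well above background in either group. The erythroid count was 1 without array 1 and 0 without array 2, 3 or 4, and the stroma and muscle count was 0 without any of the 4. Of 5 endothelial genes 0 passed in limma or the methods' t-test after adjustment, and 1 had an unadjusted p under 0.05 in limma. The count was also 0 without pairing or any 1 array. It was 1 with dim probes removed and 1 with the ratio of the processed signals, next to 18.5% and 31.9% of all probes. With normexp it was 2 after loess and 4 after median centring, next to 14.7% and 43.4% of all probes. In bulk pools, more cells of a type and more RNA per cell cannot be told apart. The part of these cells in the values of the members was not tested.

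Markers of the embryo itself ranged from bright to not detected. POU5F1, which marks the epiblast, had mean signals of 9288 and 8050, and KRT8, which marks trophectoderm, 23840 and 15760. Of 8 trophectoderm genes 1 rose and 1 fell, of 5 epiblast genes 1 rose and 1 fell, and 2 of 5 primitive endoderm genes fell, next to 9.53% of all probes higher and 11.1% lower. Without array 2, 3 or 4 the higher calls of the first 2 lists were 0. ELF5 of the trophectoderm was not well above background in either group, and AFP of the primitive endoderm was so in fertilised embryos alone, with mean signals of 5.05 and 24.5.

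Against the 22 probes that the keywords removed, the members were dimmer and their bounds smaller, as descriptions of 2 sets from the same rule. The keyword probes had a median parthenote signal of 98.2 (range 32.2 to 204) and a median bound of 2.45 (1.36 to 4.11), next to 52.3 and 1.71 for the members. Base composition was alike, with a median GC share of 43.3% in the members and 43.3% over all probes. The array files place 99 of the 118 member probes on 18 chromosomes, 5 of them on the X chromosome.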

How the data were processed

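Gene expression was measured in 4 parthenote pools and 4 fertilised pools on 4 two-colour Agilent arrays. The authors read the slide with Agilent Feature Extraction 10.10.1.1. Of the deposited values, the mean and background intensity of a spot are raw, the processed intensity is background-subtracted and dye-normalized, and the deposited log10 ratio is the processed Cy5 over the processed Cy3 signal. The series table repeats these log10 ratios in reverse sign, so as an alternative it could change nothing.

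Here spots of a probe were averaged after control and marked spots were dropped, a call being kept at a mean of 0.5 or more, and ratios were turned to log2 of parthenote over fertilised. The ratio on an array pairs its pools. Probes with values on at least 3 arrays were tested against 0 with limma 3.58.1 in R 4.3.3 (two-sided, Benjamini-Hochberg over all probes tested, threshold 0.05), checked on simulated data. Bounds used normexp with an offset of 50, loess and Aquantile. Where a spot lay over 20 units below its local background, that background was set to the array's median (8 Cy3 and 10 Cy5 spots of array 2, 1 of each on array 4). Gene lists were described with the brightest probe of each gene and no set test was run. Tables were made with Python 3.11.15, numpy 2.4.6 and pandas 2.3.3.

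Symbols were found for 21929 of 43603 probes, mostly through RefSeq accessions (12536) or gene identifiers (8565) matched to the rabbit table of assembly mOryCun1.1, used for names only. The members and lists were chosen with earlier results of these data known. By rule the text names genes with 2 or more separate member probes, the 20 named genes with the brightest probes, member genes on a list and the probes next to the limit. Other members and list genes were named after their values were seen. The values of 2 member genes are not reported here, though counts and medians include them. The number of arrays limits the precision. The build of the array's coordinates is not given in the sources used here.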

Additional observations from a re-analysis of the deposited data

How the results depend on the processing

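The count of 118 probes was the same with marked spots ignored or dropped, was 95 without the listed motile cilium genes and 86 with probes that share 40 bases counted once (an alternative chosen after seeing the data). With the weaker call it was 131, of which 9 were among the 118. Leaving out 1 array gave 132 to 188 probes and 89 to 127 genes, since the rule then has fewer calls to meet. The median bound was 4.05 on the deposited processed signals, 1.365 with the 5th percentile as floor, and 1.61 to 1.79 with 1 array left out. Other probes with a positive ratio numbered 104 to 108 under all alternatives.

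Over all probes, calls higher and lower were 4155 and 4841 (46.2% higher). They were 6413 and 6706 with normexp and loess, 18939 and 19023 with normexp and median centring, 13912 and 7487 with the ratio of the processed signals (65.01% higher), and 2032 and 2403 with the methods' t-test. Without the pairing of pools, that is with no replicate block, they were 11117 and 5241 (68.0% higher). With 1 array left out they ranged from 531 to 2658 and from 708 to 3078. Of the 95 listed cilium genes that were not members, 19 were called higher, and 43, 69, 51, 8 and, without pairing, 40 under the same alternatives, and 2 to 8 with 1 array left out. With the 12 members, which were selected on this contrast, the counts were 28, and 54, 80, 62, 13 and, without pairing, 50, and 4 to 13 with 1 array left out. The median of the 95 was 0.16 to 0.51 over all alternatives. The cause of these shifts was not tested.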
